A study of Mus musculus with 6 samples.

Results

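The cytosolic ribosomal proteins are the protein subunits of the ribosomes that translate messenger RNA in the cytoplasm. Their probes were taken from the annotation of the array by symbol. The rule took Rpl or Rps followed by a number, with at most a single letter (a, x, l or y) and further digits after it, the stalk proteins, and Rpsa. It left out the S6 kinases and the pseudogenes, and asked for a deposited value on at least 3 of the 6 arrays. This gave 68 probes of 66 genes among 23473 probes on the array. Of these probes, 41 belonged to 40 genes of the large subunit and 27 to 26 genes of the small subunit. The study asked what happens to gene expression in cultured astrocytes, the star-shaped glial cells of the brain, when Chd7 is disrupted. Chd7 encodes a chromatin remodeller of the chromodomain helicase family. All cells came from the cortex of C57BL/6J mice at postnatal day 0 that carried Chd7flox/flox, an allele that Cre recombinase can cut, and all were kept in a medium with FGF2, EGF, B-27 supplement and 10% FBS. There were 3 samples infected with Cre lentivirus, titled as Chd7 knockdown, and 3 samples of the same genotype infected with control lentivirus, all harvested at 3 days after infection. The labels do not name the promoter that drives Cre, and control cells carried the floxed allele too. Nothing in the labels says whether the 3 samples of a group were separate cultures or animals, so the tests measure only the spread between these samples.

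A ribosome pairs a small subunit, which reads the messenger RNA, with a large subunit, which joins amino acids and carries the growing chain out through a tunnel. Each subunit is an RNA core clad in single copies of many different proteins, and dividing and growing cells spend much of their transcription on making them. The messenger RNAs of these proteins typically begin at a C followed by a run of pyrimidines (C or T in the gene), the 5′ terminal oligopyrimidine tract, through which mTORC1 signalling sets how well they are translated. Such control acts on translation and need not show in RNA levels, which are what the arrays measured.

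The sequences below show the pyrimidine runs around the annotated starts of members that the results come back to. They were read from RefSeq's promoter table for GRCm38.p6, which held 62 promoters of 52 of the 66 genes. Each line gives 40 bases before the annotated start of transcription and 20 bases from it, 5′ to 3′, with the longest run of C and T that began near the start in capitals. The positions are those of the printed bases.
Rpl27a, chr7:109519155-109519214, plus strand: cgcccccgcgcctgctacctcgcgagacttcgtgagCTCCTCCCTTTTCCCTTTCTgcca
Rps10, chr17:27635225-27635284, minus strand: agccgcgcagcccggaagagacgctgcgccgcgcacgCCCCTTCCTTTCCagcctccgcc
Rps6, chr4:86857348-86857407, minus strand: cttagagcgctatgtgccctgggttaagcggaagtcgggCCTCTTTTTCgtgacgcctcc
Rps27, chr3:90213629-90213688, minus strand: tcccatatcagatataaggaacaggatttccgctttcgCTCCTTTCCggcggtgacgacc
Rps28, chr17:33824543-33824602, minus strand: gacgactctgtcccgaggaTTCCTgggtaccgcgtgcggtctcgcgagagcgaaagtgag
Rpl22l1, chr3:28805468-28805527, plus strand: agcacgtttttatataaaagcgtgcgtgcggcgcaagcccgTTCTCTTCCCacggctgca
Rpl27a had the longest of the runs printed here, at 20 bases, and it opened 4 bases before the annotated start. The runs of Rps10, Rps6 and Rps27 were 13, 10 and 9 bases long. That of Rpl22l1, 10 bases, began at base 2 of the transcript. That of Rps28, with only 5 bases, began 21 bases before the start, upstream of the transcript.

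Over all member promoters, 26 of 62 (41.9%) held a run of at least 8 pyrimidines on the gene's strand between 25 bases before and 20 bases after the start. The share was 18.1% in all 32851 promoters of the same length in the table. A C followed by 4 pyrimidines stood exactly at the annotated start in 11 member promoters (17.7%), against 2.51% of all promoters. The letters CGGAAG, the core bound by ETS factors such as GABP, occurred on either strand in 39 member promoters (62.9%) and in 16.9% of all promoters. The letters AAGATGG, of the motif bound by YY1, occurred on either strand in 9 (14.5%) and in 6.34%. CGGAAG and AAGATGG were searched from 250 bases before to 50 bases after the start, a wider window than that of the pyrimidine features. All of these are matches of letters, and a start annotated a few bases away moves the tract out of place.

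The labels were checked on Chd7 itself. On the log2 scale of normalised intensity used throughout, one of its probes gave 6.00, 5.97 and 6.01 on the Cre arrays, against 6.92, 7.49 and 6.95 on the control arrays. The groups did not overlap, and the difference was -1.13 (SE 0.16, adjusted p = 0.405 by limma). The deposited linear values of this probe were 8, 7 and 8 on Cre arrays and 42, 89 and 46 on control arrays. At such dim spots the offset added before the logarithm makes differences smaller, so -1.13 understates the gap in deposited values. The other Chd7 probe differed by -0.11 (SE 0.06). It was dim in both groups, with deposited values of 9, 6 and 11 on Cre arrays and 11, 13 and 14 on control arrays. Its small difference therefore says little. The labels do not say whether either probe lies in the part that Cre removes.

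Among the arrays, probes exceeding background made up 82.8 to 87% in the Cre samples and 87.4 to 90.7% in the control samples, and any pair of arrays correlated at r of 0.985 to 0.995 across probes. Astrocyte markers were present: 16 of 17 probes of the marker list had a higher mean in Cre, with a median difference of 0.22, and their summed deposited values were 7923 to 9874 in Cre samples and 5933 to 10330 in control samples. Markers of microglia and macrophages differed the other way, with 14 of 18 probes lower in Cre and a median of -0.14. Their summed values were 351 to 473 in Cre samples against 509 to 645 in control samples. On the deposited scale the median of all probes was itself lower in Cre, with a log2 difference of -0.167. Fibroblast and mural cell markers were present too, with 9 of 13 probes lower in Cre and a median of -0.058. Their summed deposited values were 6572 to 10852 in Cre samples and 7063 to 12138 in control samples. Their median level was 6.868, 6.35 and 6.792 on Cre arrays and 7.016, 6.079 and 7.215 on control arrays. Of neuron, oligodendrocyte lineage and endothelial probes, 6 of 13, 7 of 11 and 3 of 7 were lower in Cre, against 50.4% of all probes tested. The part of any of these cell types in the results on ribosomal proteins was not tested. In such bulk samples, fewer cells of a type and less RNA per cell cannot be told apart.

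No ribosomal protein gene differed between Cre and control astrocytes past the threshold. Of the 68 probes, 67 exceeded background on at least 3 arrays and were tested, and 0 of them had an adjusted p under 0.05 (limma, Benjamini-Hochberg over all 20540 probes tested, of which 0% passed). The smallest adjusted p of a member was 0.622 and the smallest of any probe 0.405. At an unadjusted p under 0.05, 3 member probes were lower in Cre and 1 was higher, and among all probes tested 2.85% were lower and 2.77% higher at that level. The members' share, 4 of 67, was near the 5.61% of all probes in either direction. Leaving out an array moved that count. It was 7 (10.4% of members, against 4.16% of all probes) without Cre replicate 1 and 7 (10.4%, against 6.71%) without control replicate 2. Without control replicate 3 it was 12, of which 6 were lower (17.9%, against 6.56%). The one member not tested was Rpl3l, a copy of Rpl3 used in skeletal and heart muscle, whose spots read 73.9, 63.5 and 72.4 intensity units on Cre arrays and 65.3, 68 and 67.5 units on control arrays, close to the blank spots at 62.4 to 70.8 units. No probe found by the rule carried the symbols of Rplp0, Rplp1 and Rplp2, which form the stalk of the large subunit. The same held for Rps27a, a fusion with ubiquitin, so these 4 genes were not analysed here.

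The differences of the members were small. The lower quartile was -0.11 and the upper quartile 0.05 on the log2 scale, the median was -0.044 and the median size of a difference was 0.091, about equal to the median standard error of 0.092. By sign, 44 of 67 probes were lower in Cre, against 50.4% of all probes tested, whose median difference was -0.00064. All 3 Cre arrays lay below all 3 control arrays for 5 member probes (7.46%), those of Rpl27a, Rpl7a, Rps3a1, Rps10 and Rps4x, while this held for 5.31% of all probes. The Cre arrays lay above for 2, Rpl36 and Rpl23a, and for 5.22% of all probes. The 95% interval of the difference held 0 for 63 of the 67 probes. Only 5 probes differed by more than 0.25 and 1 by more than 0.5.

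**Figure D1:**
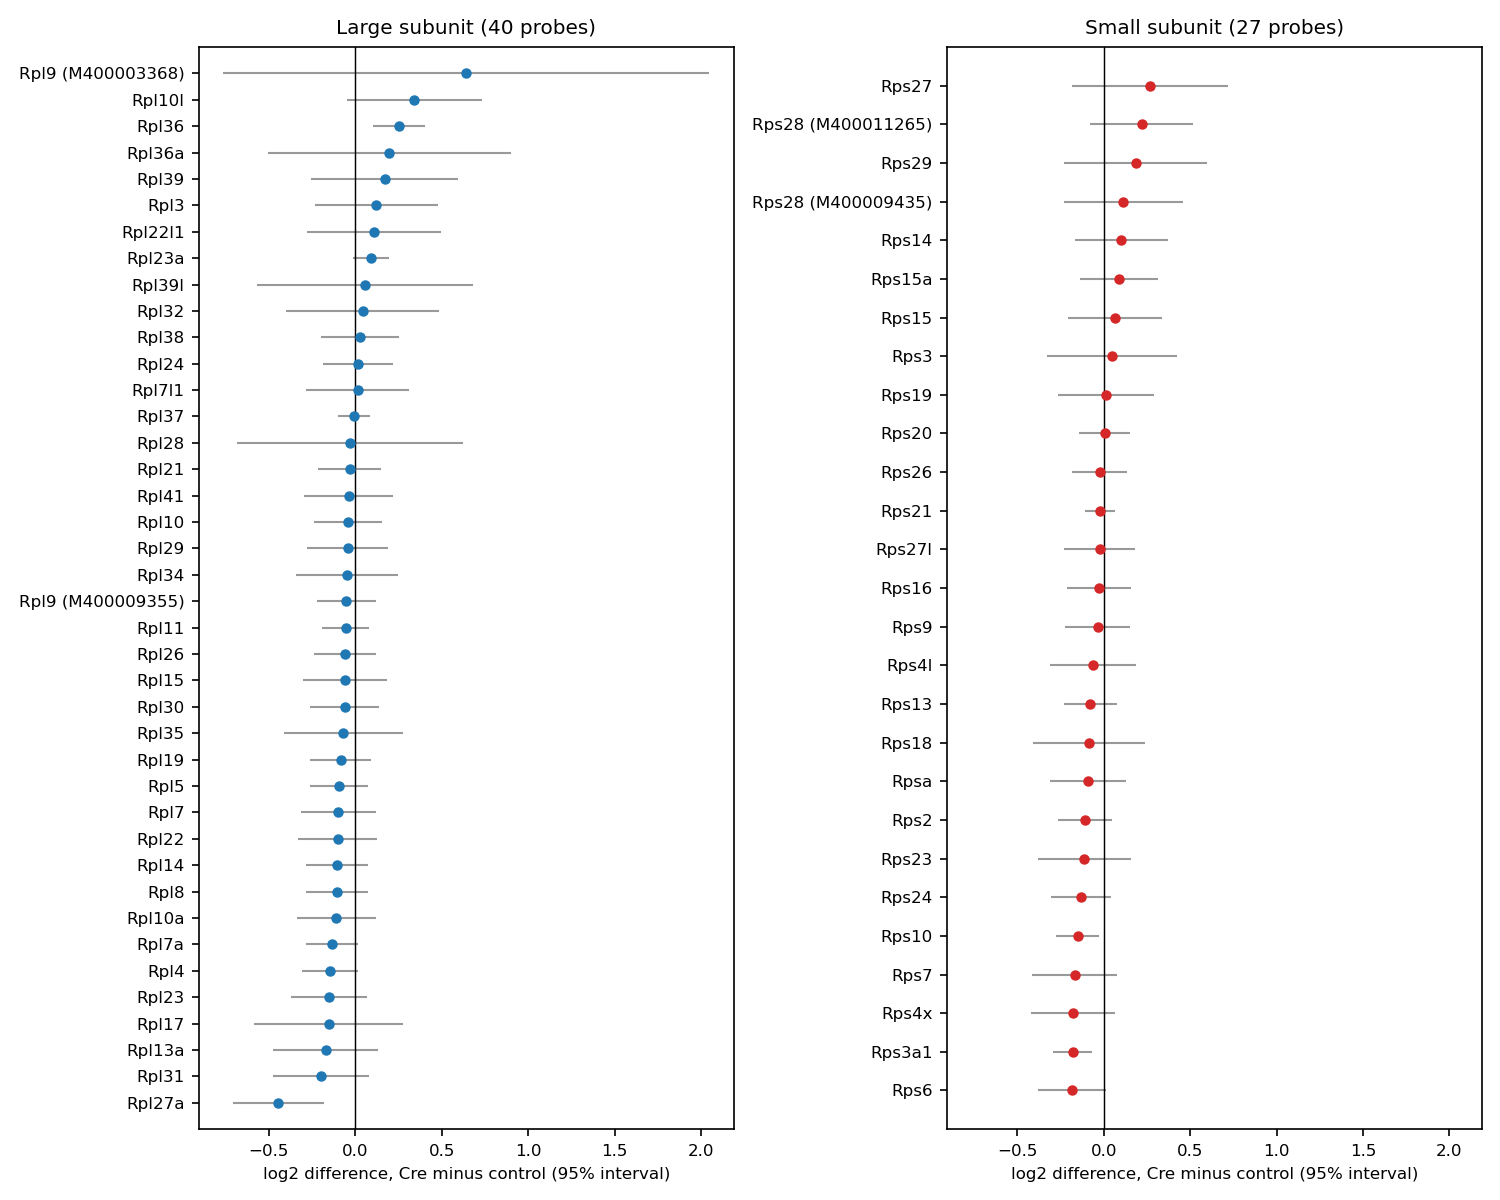
Log2 difference, Cre minus control, of each of the 67 ribosomal protein probes tested (points, with 95% intervals), in 2 panels for the large subunit (40 probes) and the small subunit (27 probes). Nearly all intervals hold 0, and the exceptions are Rpl27a, Rps3a1 and Rps10 on the lower side and Rpl36 on the higher side.

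The large subunit had a median difference of -0.051 over 40 probes, with 27 lower in Cre. The small subunit had a median of -0.028 over 27 probes, with 17 lower, and 50.4% of all probes tested were lower. At an unadjusted p under 0.05 the large subunit had 1 probe lower and 1 higher, and the small subunit had 2 lower and 0 higher. Among all probes tested, 2.85% were lower and 2.77% higher at that level. The difference between the subunits was not tested.

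The tilt of the members towards lower values in Cre rested on the array of control replicate 3. When each probe was centred on its own mean over the 6 arrays, the median member stood at -0.0063, -0.037 and -0.010 on the Cre arrays and at 0.0062, -0.078 and 0.149 on the control arrays. On the array of control replicate 3, 56 of 67 member probes exceeded their own mean, and on that of control replicate 2 only 17 did. The single highest of the 6 values of a probe fell on control replicate 3 for 40 of the 67 probes, and the lowest fell on control replicate 2 for 22. Both subunits showed this, with 31 of 40 large subunit probes and 25 of 27 small subunit probes above their own mean on control replicate 3. Over all probes tested, the median centred value of that array was -0.0031.

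**Figure D2:**
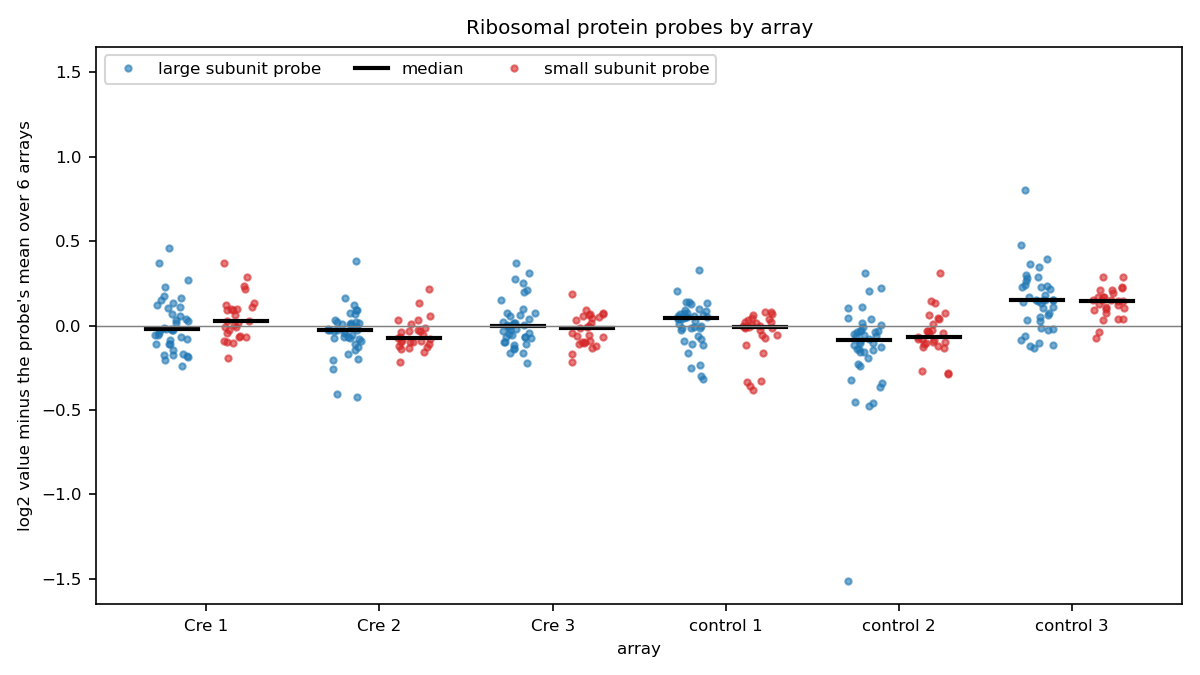
Log2 value of each ribosomal protein probe minus its mean over the 6 arrays (points, by array, Cre replicates left and control replicates right; blue for the large and red for the small subunit, with a bar at each median). Control replicate 3 sits above 0 in both subunits (medians 0.151 and 0.145), and the lone point near -1.5 is an Rpl9 probe on control replicate 2.

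With control replicate 3 left out, the median of the members was 0.0070 and 29 of 67 probes were lower in Cre. With control replicate 2 left out, the median was -0.092 and 53 were lower. Same-numbered samples of the 2 groups deviated together, so the groups were also compared by number. The median difference was 0.011 in pair 1, 0.012 in pair 2 and -0.154 in pair 3, and 31, 32 and 56 of 67 probes were lower in Cre. Only pair 3 thus showed a direction in its median. In all 3 pairs 12 probes (17.9%) were lower in Cre and 5 (7.46%) higher, while among all probes tested 15.5% were lower in all pairs and 14.6% higher. The median standard deviation of a member probe was 0.098 over the Cre arrays and 0.143 over the control arrays, and for all probes tested it was 0.073 and 0.083.

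Across the 6 arrays the member probes moved partly together. Over the 2211 pairs of member probes, the median correlation was 0.291 and 68.2% of the correlations were positive. This describes 6 arrays whose hybridisations the probes shared, and it carries no test. The same was not computed over other probes, so it is not shown to be particular to the members.

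Among proteins of the large subunit, Rpl27a had the smallest p in the lower direction. Its probe gave 9.25, 9.03 and 9.41 on the Cre arrays, against 9.59, 9.76 and 9.67 on the control arrays. Every Cre array was below every control array, with a difference of -0.45 (SE 0.11, adjusted p = 0.622 by limma). The deposited linear values of this probe were 327, 242 and 367 on Cre arrays and 414, 561 and 495 on control arrays. Rpl36 had the smallest p in the other direction, with 12.74, 12.58 and 12.78 on the Cre arrays, against 12.46, 12.43 and 12.46 on the control arrays. Its difference was 0.25 (SE 0.06, adjusted p = 0.623 by limma), and again the groups did not overlap.

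Rpl4, whose long extension lines the exit tunnel, gave 13.24, 13.39 and 13.39 on Cre arrays and 13.54, 13.52 and 13.39 on control arrays. The third control array met the Cre arrays, and the difference was -0.15 (SE 0.07). Rpl7a, which binds ribosomal RNA of the large subunit, gave 13.33, 13.12 and 13.22 on Cre arrays, against 13.34, 13.34 and 13.40 on control arrays. These groups were separated only narrowly at replicate 1, with a difference of -0.14 (SE 0.06). Rpl31, which lies near the mouth of the tunnel, gave 8.26, 7.99 and 8.03 on Cre arrays and 8.24, 8.15 and 8.47 on control arrays, which overlap, with a difference of -0.20 (SE 0.11). Rpl23a, a docking site at the tunnel mouth for the signal recognition particle, gave 14.48, 14.57 and 14.58 on Cre arrays, against 14.48, 14.44 and 14.44 on control arrays. The Cre arrays lay just above, with a difference of 0.09 (SE 0.04). The smallest adjusted p of these 4 was 0.936 (limma).

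Members around the catalytic centre and the 5S ribonucleoprotein gave overlapping groups. Rpl3, next to the peptidyl transferase centre, gave 13.27, 13.47 and 13.57 on Cre arrays and 13.36, 13.06 and 13.53 on control arrays, with a difference of 0.12 (SE 0.14). Rpl10, which joins the subunit late in its maturation, differed by -0.04 (SE 0.08). Rpl5 and Rpl11 bind the 5S ribosomal RNA and, when free, the p53 regulator Mdm2. Rpl5 gave 14.05, 14.24 and 14.24 on Cre arrays and 14.30, 14.21 and 14.30 on control arrays, with a difference of -0.09 (SE 0.07). Rpl11 gave 12.76, 12.69 and 12.61 on Cre arrays and 12.81, 12.73 and 12.69 on control arrays, with a difference of -0.06 (SE 0.06). Rpl11 was lower in Cre in all 3 pairs, by -0.057, -0.040 and -0.074, and its groups overlap.

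Of the other large subunit proteins with a known separate role, Rpl13a, which in human monocytes leaves the ribosome to silence inflammatory messages, gave 10.27, 9.88 and 10.00 on Cre arrays and 10.21, 10.09 and 10.37 on control arrays. Its difference was -0.17 (SE 0.12), and the groups overlap. Rpl26, which binds p53 messenger RNA in human cells, differed by -0.06, and Rpl38, which mouse embryos need for translation of Hox messages, differed by 0.02. The spots of Rpl38 were dim, at 122 to 163 intensity units. Rpl41, the shortest protein of the ribosome, gave 14.79, 14.71 and 14.90 on Cre arrays and 14.71, 14.76 and 15.05 on control arrays. Its difference was -0.04, and its groups overlap.

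Rpl9 had a pair of probes that disagreed in sign. The first gave 8.63, 8.75 and 8.68 on Cre arrays and 8.11, 6.85 and 9.17 on control arrays, a difference of 0.64 (SE 0.57) that stood among control arrays more than 2 log2 units apart. The second gave 14.06, 14.19 and 14.19 on Cre arrays and 14.24, 14.09 and 14.28 on control arrays, a difference of -0.05 (SE 0.07). The largest member difference therefore came from a probe with very unequal controls, and the other probe of the same gene did not show it.

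In the small subunit, Rps3a1, a protein of the platform near the exit of the messenger RNA, had the smallest p. It gave 13.75, 13.68 and 13.75 on Cre arrays, against 13.86, 13.90 and 13.97 on control arrays. The groups were apart, by a difference of -0.18 (SE 0.04, adjusted p = 0.635 by limma). Rps10, which is mutated in some people with Diamond-Blackfan anaemia, gave 13.28, 13.30 and 13.32 on Cre arrays, against 13.39, 13.41 and 13.54 on control arrays. These groups too were apart, by -0.15 (SE 0.05, adjusted p = 0.785 by limma). The tracts of Rps10 and Rpl27a are among the sequences printed above.

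Rps6, the substrate of the S6 kinases downstream of mTORC1, gave 13.45, 13.41 and 13.41 on Cre arrays and 13.44, 13.66 and 13.73 on control arrays. The difference was -0.19 (SE 0.08, adjusted p = 0.927 by limma), and control replicate 1 lay among the Cre arrays. Rps4x, encoded on the X chromosome, gave 13.93, 13.94 and 13.93 on Cre arrays and 14.02, 14.33 and 13.98 on control arrays. The groups did not overlap, and control replicate 2 alone stood well above, with a difference of -0.18 (SE 0.10). Rps24, another gene of Diamond-Blackfan anaemia, gave 7.0, 6.97 and 7.14 on Cre arrays and 7.19, 7.07 and 7.25 on control arrays, which overlap, with a difference of -0.13 (SE 0.07). The spots of Rps24 were dim, at 125 to 171 intensity units.

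Rps2 and Rps3 line the channel through which messenger RNA enters. Rps2 gave 14.63, 14.48 and 14.44 on Cre arrays and 14.57, 14.63 and 14.67 on control arrays, with a difference of -0.11 (SE 0.06). Rps3 gave 13.59, 13.32 and 13.23 on Cre arrays and 13.37, 13.07 and 13.55 on control arrays, with a difference of 0.05. Rps14, the gene behind the anaemia of the human 5q- syndrome, gave 14.35, 14.16 and 14.03 on Cre arrays and 13.97, 14.03 and 14.24 on control arrays, with a difference of 0.10 (SE 0.11). The groups overlap in all 3 genes. Rps19, the gene most often mutated in Diamond-Blackfan anaemia, gave 7.89, 7.92 and 7.57 on Cre arrays and 7.82, 7.65 and 7.86 on control arrays, a difference of 0.01. The spots of Rps19 were dim too, at 211 to 284 intensity units. Rpsa, also known as a laminin receptor, gave 7.63, 7.49 and 7.61 on Cre arrays and 7.62, 7.54 and 7.84 on control arrays, a difference of -0.09. Rps15a gave 7.93, 8.21 and 7.99 on Cre arrays and 8.06, 7.88 and 7.92 on control arrays, a difference of 0.09, and was among the 4 small subunit probes of smallest p in the higher direction.

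The other 3 of those 4 were probes of Rps27, Rps28 and Rps29, and all 3 were lowest on control replicate 1. Rps27 gave 13.20, 12.80 and 12.88 on Cre arrays and 12.49, 12.54 and 13.04 on control arrays, with a difference of 0.27 (SE 0.18). Rps29 gave 13.79, 13.40 and 13.60 on Cre arrays and 13.12, 13.43 and 13.67 on control arrays, with a difference of 0.19 (SE 0.17). In each gene control replicate 1 was the lowest array and control replicate 3 lay inside the range of the Cre arrays. Rps28 had a pair of probes, both with a higher mean in Cre. The first gave 13.20, 13.12 and 13.28 on Cre arrays and 12.76, 12.96 and 13.22 on control arrays, with a difference of 0.22 (SE 0.12). The second gave 13.26, 13.10 and 13.20 on Cre arrays and 12.77, 13.17 and 13.28 on control arrays, with a difference of 0.11 (SE 0.14). Without control replicate 1 the difference of Rps27 was 0.17, that of Rps29 0.045, that of the first Rps28 probe 0.11 and that of the second Rps28 probe -0.036, so that its probes then differed in sign.

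**Figure D3:**
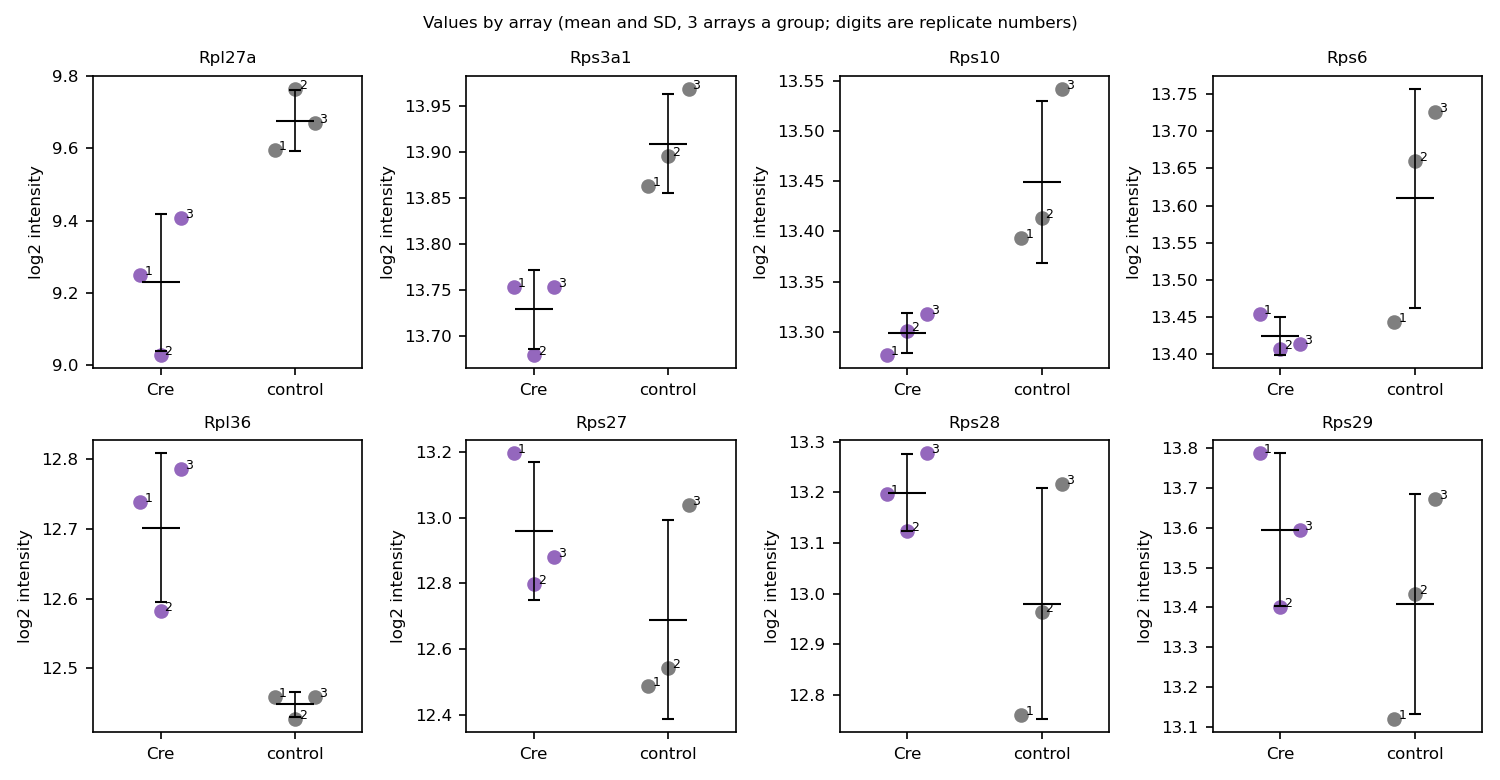
Log2 intensity of 8 ribosomal protein probes on each of the 3 Cre arrays (left in each panel) and 3 control arrays (right), numbered by replicate, with the group mean and SD; each panel has its own axis, which does not start at 0. The groups do not overlap for Rpl27a, Rps3a1, Rps10 and Rpl36, control replicate 1 is the lowest array for Rps27, Rps28 and Rps29, and no panel shows a difference that passed adjustment.

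Several ribosomal proteins have a paralog that stands in for them in certain tissues. Rpl22, which in mouse cells represses its own paralog, gave 8.85, 8.91 and 8.89 on Cre arrays and 9.0, 9.16 and 8.80 on control arrays, a difference of -0.10 (SE 0.09). Rpl22l1 gave 11.69, 11.75 and 12.05 on Cre arrays and 11.54, 11.62 and 12.01 on control arrays, a difference of 0.11 (SE 0.16). The signs were opposite, and neither exceeded the spread of its arrays. Rpl39 gave 11.89, 11.62 and 11.71 on Cre arrays and 11.35, 11.42 and 11.94 on control arrays, a difference of 0.17 (SE 0.17), and Rpl39l, its paralog of the male germ line, differed by 0.06 (SE 0.25). Rpl10l, the copy of Rpl10 used in the testis, gave 6.73, 6.40 and 6.21 on Cre arrays and 6.25, 5.91 and 6.16 on control arrays. Its difference was 0.34 (SE 0.16), the Cre arrays were spread over 0.5 log2 units, and the groups overlap. The size depended on the background: it was 1.01 when the blank mean was subtracted, 0.85 in the authors' deposited values and 0.11 with the local background.

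The remaining paralogs differed by little. Rpl7 differed by -0.10 (SE 0.09) and its nucleolar relative Rpl7l1 by 0.01 (SE 0.12). Rps27l, a target of p53, gave 13.36, 13.23 and 13.17 on Cre arrays and 13.26, 13.16 and 13.41 on control arrays, a difference of -0.02 (SE 0.08). Rps4l differed by -0.06 (SE 0.10). Messages of this family share sequence with paralogs and with many processed pseudogenes, and the probe sequences were not used here, so signal from such copies cannot be told apart from that of the named gene. Platform annotation lists 3 of the member probes, those of Rpl22, Rps27 and Rps4l, with a non-coding transcript. It lists 3, those of Rpl28, Rpl38 and Rps21, with no accession.

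Probes named for ribosomal protein pseudogenes, which are not members, tilted the same way as the members. Of 31 such probes, 26 were lower in Cre, against 50.4% of all probes tested, with a median of -0.058. On the array of control replicate 3, 22 were above their own mean, but on that of control replicate 1 this held for 21. On that of Cre replicate 2 it held for only 7. At an unadjusted p under 0.05, 1 was lower in Cre and 0 were higher, against 2.85% and 2.77% of all probes tested, and 0 passed adjustment. That probe was named for Rpl5-ps1 and averaged 13.47 ± 0.01 on Cre arrays and 13.69 ± 0.06 on control arrays (SD, n = 3 each), with a difference of -0.22 (SE 0.04, adjusted p = 0.522 by limma). The Rpl5 probe itself differed by -0.09.

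The members were also described by the strength of their signal. The 43 member probes with a mean spot of at least 2000 intensity units, read at 2413 to 33780 units, had a median difference of -0.051, and their differences spanned -0.19 to 0.27. The 10 with a mean spot of 300 to 2000 units had a median of -0.082 and included Rpl27a and the first Rpl9 probe, the ends of the range at -0.45 and 0.64. The 14 below 300 units, read at 68 to 306 units, had a median of -0.016, where the offset added before the logarithm makes differences smaller. They included Rpl10l, Rpl38, Rpl39l, Rps15a, Rps19, Rps24 and Rpsa. Across these classes 28, 8 and 8 probes were lower in Cre, against 50.4% of all probes tested. The class limits were set after the values were seen.

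**Figure D4:**
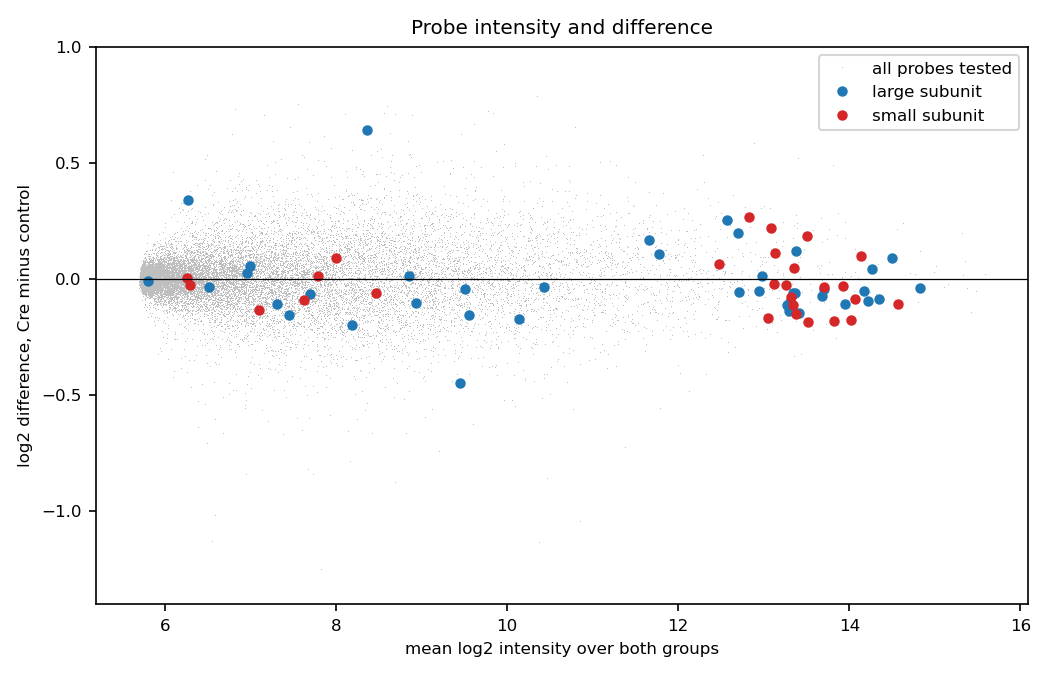
Log2 difference, Cre minus control, against mean log2 intensity over both groups, for all 20540 probes tested (grey), large subunit probes (blue) and small subunit probes (red). All members but Rpl27a (-0.45), Rpl10l (0.34) and 1 Rpl9 probe (0.64) lie within 0.3 of the zero line.

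Members with and without a long pyrimidine run within 25 bases before to 20 bases after the start had medians of the same sign. This class includes runs that lie wholly before the start, so it is not the 5′ terminal tract itself. The 25 tested probes of genes with a run of at least 8 pyrimidines near the start had a median difference of -0.072, with 19 lower in Cre. The 28 probes of genes with a promoter but no such run had a median of -0.041, with 18 lower. Of all probes tested, 50.4% were lower. Single members went either way: Rpl27a, with a run of 20, differed by -0.45 and Rps10, with a run of 13, by -0.15, while Rps27, with a run of 9, differed by 0.27 and Rpl22l1, with a run of 10, by 0.11. These medians are a description, since the probes share the same 6 arrays. Promoter matches had no part in choosing the members.

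Other genes of translation were counted from lists of named genes, and 0 probes of any list passed adjustment. A list of 9 further genes gave 5 probes of 4 genes, of which 2 are ribosomal proteins: Rpl36al, whose symbol falls outside the rule for members, at 0.02, and Fau, a fusion of a ubiquitin-like protein with Rps30, at -0.04. The other probes were those of Tpt1, whose message also begins with a pyrimidine tract, at -0.18, and of Nap1l1, a histone chaperone, at -0.15 and -0.04. Among 14 probes of elongation factors and related factors, 8 were higher in Cre with a median of 0.031. At an unadjusted p under 0.05, 1 was lower and 2 were higher, against 2.85% and 2.77% of all probes tested. Eef1b2, an exchange factor for eEF1A whose message carries a tract as well, averaged 12.93 on Cre arrays and 13.15 on control arrays, a difference of -0.22 (SE 0.05). Eef1a2, the eEF1A of neurons and muscle, differed by 0.29 (SE 0.09), and Etf1, the release factor that reads stop codons, by 0.21 (SE 0.07).

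Among 39 probes of initiation factors the median was 0.0037, and at an unadjusted p under 0.05, 1 was lower and 3 were higher. Among all probes tested, 2.85% were lower and 2.77% higher at that level. In the lower direction, the factors with the smallest p were Eif2s2, at -0.23 (SE 0.08), and Eif1b, at -0.38 (SE 0.15). Eif2s2 is a subunit of the factor that brings the initiator tRNA. In the higher direction they were Eif2s3x at 0.56 (SE 0.18) and Eif4b, a helper of the RNA helicase eIF4A, at 0.52 (SE 0.19). Eif4h, at 0.33 (SE 0.12), was also higher at an unadjusted p under 0.05, while Eif1b did not reach that level. Among 74 probes of ribosome biogenesis and ribosomal RNA synthesis the median was -0.021, and 0 were lower and 3 higher at that level. Polr1e, a subunit of RNA polymerase I, differed by 0.36 (SE 0.09), Nob1, which cuts the end of 18S ribosomal RNA, by 0.16 (SE 0.05), Dkc1, the pseudouridine synthase of the nucleolus, by -0.22 (SE 0.09) and Imp3 by -0.21 (SE 0.09). Among 22 probes of mTORC1 and S6 kinase signalling the median was 0.031, and 0 were lower and 1 higher. The higher probe was that of Deptor, an inhibitor of mTOR, at 0.14 (SE 0.05). Larp4, which binds the poly(A) tail, differed by 0.08 (SE 0.04), Rheb, the GTPase that activates mTORC1, by -0.25 (SE 0.11) and Myc, which drives transcription of ribosome genes, by -0.14 (SE 0.06).

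Mitochondrial ribosomal proteins build a separate ribosome for the few proteins encoded in mitochondrial DNA. Their 80 probes had a median difference of -0.037, with 50 lower in Cre, against 50.4% of all probes tested. At an unadjusted p under 0.05, 3 were lower and 0 higher, against 2.85% and 2.77% of all probes tested. On the array of control replicate 3, 63 of 80 were above their own mean, with a median of 0.140. Mrpl43 differed by -0.23 (SE 0.06), Mrps24 by -0.29 (SE 0.10), Mrpl28 by 0.19 and Mrps25 by 0.18. Control replicate 3 thus read high for both ribosomes, while on that array the median was 0.0064 for initiation factors, -0.0056 for elongation factors and 0.0081 for biogenesis genes.

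The level of all arrays relative to each other bore on these values. In the authors' deposited values, without further normalisation, 60 of 68 members were lower in Cre and their median log2 difference was -0.212, but the median of all probes was -0.167, so the members stood at -0.045 relative to it. All 3 Cre arrays lay below all control arrays for 16 of 67 members (23.9%), against 12% of all probes with 6 deposited values, and above for 0, against 0.689% of all probes. After quantile normalisation of the same deposited values, the median was -0.089 for members and -0.126 for all probes, so the members stood 0.037 above the typical probe. Local background rings around the spots, at 59.6, 95.7 and 64.4% of the spot's own value at member spots on Cre arrays and 64.1, 38.7 and 46.8% on control arrays, were not subtracted in the setting used. Where they were, the difference of Rpl36 was -1.31 and that of Rps10 0.19, each opposite in sign to the value above.

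**Figure D5:**
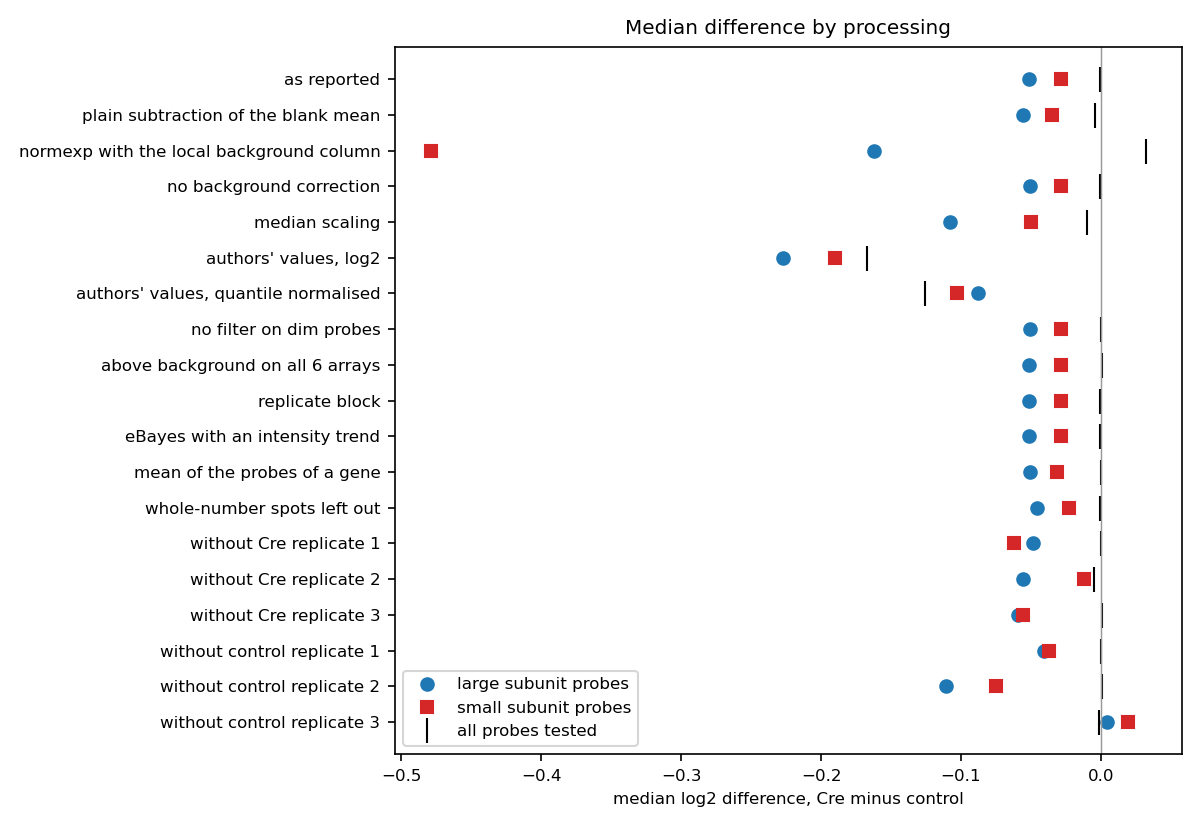
Median log2 difference, Cre minus control, of large subunit probes (blue circles) and small subunit probes (red squares) under each processing setting and with each array left out, with the median of all probes tested (black ticks). Both subunits lie above 0 only without control replicate 3 (0.0041 and 0.0195), and they lie farthest below it with the local background (-0.162 and -0.479) and in the authors' values (-0.227 and -0.19).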

How the data were processed

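Cy5-labelled amplified RNA was hybridised to 1-colour oligonucleotide arrays, 1 array per sample, per the labels' protocols. Scanner files, as deposited, give a median intensity per spot and a local background intensity side by side, per the file headers. A processed table deposited by the authors holds linear intensities. Its values came out as spot medians minus roughly the blank mean, over a single scale factor for each array (1.44 to 1.94), with every column at a median of 25, and no source used here says how the factors were set.

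Spot medians were corrected by normexp against the 2736 blank spots (offset 50), put on the log2 scale, quantile normalised and averaged per probe in limma 3.58.1 (R 4.3.3). Spots that the scanner had marked were dropped. Probes above the blank mean by 2 SD on at least 3 of 6 arrays were kept (20540 of 23473). Groups were compared with lmFit and eBayes, two-sided, adjusted by Benjamini-Hochberg over all kept probes, with a threshold of 0.05. The procedure was also run on simulated data in which probes varied independently, and no result given here rests on that run. The number of arrays limits the precision, since the smallest p of an exact permutation test in this design is 0.1.

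Probes were named from the platform annotation: 20690 had 1 symbol and 2783 were unnamed, and 20556 matched RefSeq's table for GRCm38.p6 by Entrez identifier. Named with values were, in each subunit, the 4 probes of smallest p in each direction, members with a set role, paralogs with their parents, and genes whose probes differed in sign (39 probes), and from each other list the 2 probes of smallest p in each direction; a few of these are given only in the counts. The members and the lists were chosen with earlier results of these data known. Same-numbered samples deviated together from their group means (r = 0.498, 0.425 and 0.436, against -0.373 to -0.167 for other numbers), so the numbers in the titles were taken to pair the samples.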

Additional observations from a re-analysis of the deposited data

How the results depend on the processing

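No member passed adjustment under any alternative. The count of members at an unadjusted p under 0.05, 4 as reported, is given with its share of members against the share of all probes under the same setting. It was 2 (2.99% against 4.95%) when the blank mean was simply subtracted, 7 (10.4% against 6.26%) with the local background, 1 (1.49% against 2.99%) with median scaling and 1 (1.47% against 8.36%) with the authors' values quantile normalised. With 1 array left out it was 3 to 12, or 4.48 to 17.9% of members against 4.16 to 6.71% of all probes, and it was 12 without control replicate 3. The median difference was -0.278 for all members, -0.162 for the large and -0.479 for the small subunit with the local background, and -0.212, -0.227 and -0.19 in the authors' values. With 1 array left out it ran from -0.092 to 0.0070 for all members, -0.111 to 0.0041 for the large subunit and -0.075 to 0.0195 for the small subunit, and 29 to 53 members were lower in Cre. All 3 medians turned positive only without control replicate 3; the cause was not tested. With the replicate number as a block, 6 members stood at an unadjusted p under 0.05, the smallest adjusted p of a member was 0.391, and 1918 of all probes (9.34%), against 1153 without the block, were at that level; the pairing changed no adjusted call. With the local background, 18 of the 39 named probes changed sign. Leaving out whole-number spots, an alternative chosen after seeing the data, left 2 Cre arrays and only 1 control array for Rpl41, so its value there (0.112) is no check of its sign. The planned removal of spots at the scanner's ceiling was not run, since no spot reached it. For members near background the offset makes differences smaller.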
